A study of Mus musculus with 24 samples.

Results

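The genes described here are 35 enzymes and regulators of cholesterol and fatty acid synthesis in mouse liver, chosen by name and measured on 24 microarrays. All 35 were among the 19040 genes tested. They were divided by role into 18 sterol enzymes, 6 control genes of the SREBP system and 11 lipogenic genes. The mice were double knockout (dKO) or wild type for Foxa1 and Foxa2, forkhead factors that regulate hepatocyte genes. By its title, the series concerns how liver cancer differs between the sexes. The 6 groups of 4 arrays were treated dKO males, treated wild-type males, treated dKO females, treated wild-type females, untreated dKO females and untreated wild-type females. Treated mice had received the carcinogen diethylnitrosamine (DEN, 20 mg/kg) when 14 to 15 days old, and then 8 doses of TCPOBOP (3 mg/kg), given every 2 weeks. TCPOBOP, a ligand of the nuclear receptor CAR, acts as a tumour promoter in liver. All 24 samples, the untreated ones too, are labelled as liver tumor. They do not give the age at collection, the deleted exons, the Cre driver or the animal behind each sample.

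Cholesterol is built in hepatocytes from acetyl-CoA through mevalonate, squalene and lanosterol, and the same acetyl-CoA is the substrate of fatty acid synthesis. Both routes are switched on by the SREBPs, membrane-bound transcription factors that the escort protein Scap carries to the Golgi when sterols are scarce and that Insig proteins hold back in the endoplasmic reticulum when sterols are plentiful. SREBP2 (Srebf2) acts mainly on sterol genes and SREBP1c (Srebf1) mainly on lipogenic genes, which the glucose-responsive factor ChREBP (Mlxipl) also drives.

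Levels are given as log2 of the probe's processed signal over the array's 75th percentile, so 0 is the 75th percentile, and differences are differences of these levels. Each gene is represented by its brightest probe, and levels of different genes are not comparable. All members were above background on every array, except Pnpla3, which was above background on 3 of 4 untreated dKO female arrays. Foxa2 lay between -7.32 and -1.93 on the dKO arrays, against 3.55 to 4.92 on the wild-type arrays, and Foxa1 between -8.29 and -5.93, against -3.36 to -2.11, so neither gene went against its labels. Some arrays of each dKO group still had Foxa2 above background. Its median was -3.45 in untreated dKO females, -4.24 in treated dKO males and -5.86 in treated dKO females, and the part of this signal was not tested. Between 50.4% and 68.4% of spots per array were above background, and precision was set by the number of arrays. Of 10 hepatocyte markers 9 were measured, and all 9 were above background on every array. Their summed signal, in units of the 75th percentile, was 1407 to 2702 in treated dKO females, and 2402 to 3454 over the other 5 groups. Position on the slide nearly coincided with group. The treated dKO and wild-type groups shared no position in either sex, so genotype and position cannot be told apart there. Treated and untreated dKO females shared no position either, so treatment and position cannot be told apart among them. With position as a covariate, no member was called between genotypes in treated mice.

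Replicate 4 of each group stood apart from replicates 1 to 3. Over 13399 genes above background on all arrays, replicate 4 lay between the lowest and the highest of the other 3 arrays of its group for 71.6% to 85.0% of genes. For replicates 1 to 3 this share was 22.6% to 62.9%, and samples that can be exchanged for one another would give 50%. The SD of replicate 4 from the mean of the other 3, taken on the linear scale and then as log2, was 0.147 to 0.206, against 0.251 to 0.769 for replicates 1 to 3. Of the 35 members, 27 to 35 lay between the other 3 arrays in replicate 4, against 7 to 19 in replicates 1 to 3. No label mentions pooling. With replicate 4 so close to a mixture of the other arrays, n = 4 overstates the number of independent samples, and the p-values of all 24 arrays are too small. Each count of members is therefore given for all 24 arrays and for the 18 arrays of replicates 1 to 3. The second fit was chosen after the data were seen. "Called" means a limma adjusted p under 0.05 over all 24 arrays, and "rose" or "fell" are kept for members called in both fits. Many members shown by array were picked among those without overlap between groups, and for them the lack of overlap is not a result. Each SE rests on a spread shared by all 6 groups, though the sterol and lipogenic arms varied most among treated dKO females. The SE and p-value can therefore be too small where that group is compared, and too large elsewhere.

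**Figure D1:**
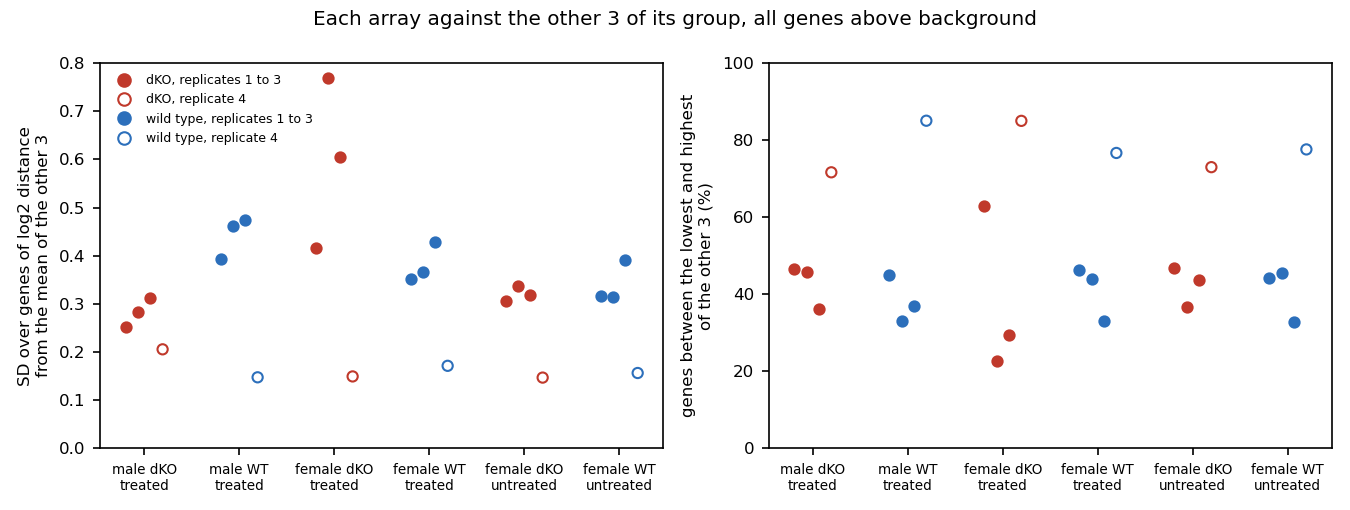
Each point is an array, grouped by sex, genotype and treatment, and the vertical axes give the percent of 13399 genes lying between the other 3 arrays of the group and the SD (log2) from the mean of those 3. Replicate 4 of each group, drawn open, sits at 71.6% to 85.0%, and replicates 1 to 3 at 22.6% to 62.9%.

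The letters of the members' promoters are shown first, because they are what the SREBPs and the factor NF-Y, with which SREBPs cooperate, read in DNA. RefSeq promoter windows (GRCm38.p6) matched 29 of the 35 members. Sqle, Fdps, Fdft1, Stard4, Dgat1 and Dgat2 had no window. Only a short stretch just before the annotated start was searched, so elements farther upstream or after the start were not seen. The sterol regulatory element was searched as TCACNCCAC and the NF-Y box as CCAAT, both on either strand. Hmgcs1, the sterol enzyme that makes HMG-CoA, had the element at position -137 from the start (stretch chr13:119690170-119690257, plus strand). Mlxipl had it at -136 from one of its 2 annotated starts (chr5:135106720-135106798, plus strand). These 2 were the members with that motif in the stretch searched, among the 29 with a window. Capitals mark both motifs.
Hmgcs1: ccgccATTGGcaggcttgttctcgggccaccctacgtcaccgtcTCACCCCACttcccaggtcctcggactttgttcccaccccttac
Mlxipl: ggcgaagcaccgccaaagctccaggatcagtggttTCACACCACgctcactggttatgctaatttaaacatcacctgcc

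The element was in 1 of 15 sterol enzymes, 0 of 5 control genes and 1 of 9 lipogenic genes with a window, against 1.225% of 27025 genes. CCAAT was in 14 of 15, 4 of 5 and 7 of 9, against 37.49% of all genes, and the E-box CACGTG, which ChREBP and SREBP1 can bind, in 3 of 15, 2 of 5 and 1 of 9, against 6.86%. These are counts of letters, and a window without a match says nothing about the factor. Among the genes with the largest genotype differences below, Mvd (chr8:122443438-122443527, minus strand) and Thrsp (chr7:97417566-97417655, minus strand) had 2 CCAAT boxes each, and Acacb (chr5:114165413-114165502, plus strand) had 1. These 3 windows are shown because of those differences, and were chosen after the values were seen.
Mvd: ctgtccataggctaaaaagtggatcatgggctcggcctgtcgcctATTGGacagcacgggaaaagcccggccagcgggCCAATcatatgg
Thrsp: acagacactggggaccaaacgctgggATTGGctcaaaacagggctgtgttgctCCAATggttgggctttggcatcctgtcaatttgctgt
Acacb: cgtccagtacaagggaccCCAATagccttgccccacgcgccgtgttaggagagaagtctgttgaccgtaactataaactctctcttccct

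In treated males the sterol enzymes were lower in dKO than in wild type along almost the whole route. Of the 35 members, 20 were called lower and 0 higher, against 10.9% and 14.4% of all genes. With replicates 1 to 3, 10 members fell, where 10.6% of all genes were called in either direction. The 10 were the sterol enzymes Mvk, Mvd, Fdps, Fdft1, Sqle, Cyp51, Nsdhl, Hsd17b7 and Dhcr7, and the lipogenic gene Acacb. The median difference was -1.06 for the sterol enzymes and -0.90 for the lipogenic genes, beside 0.04 for all genes. Within the 3 slides that held both groups, 1 array each, the sterol median was -1.01, -0.91 and -1.14, and the lipogenic median -1.14, -0.72 and -0.89.

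Mvd, which makes isopentenyl pyrophosphate (probe chr8:124957750-124957809, mm9), had levels of 0.52, 0.83, 0.77 and 0.97 in treated dKO males, against 2.27, 2.5, 2.06 and 2.24 in treated wild-type males. The groups did not overlap, and Mvd fell by 1.5 ± 0.29 (SE, limma adjusted p = 0.000689), or 2.82-fold. Fdps, which makes farnesyl pyrophosphate (chr3:88898812-88898952), had levels of 4.54, 5.02, 4.01 and 4.69 in dKO, against 6.04, 5.90, 6.26 and 5.99 in wild type. It fell by 1.48 ± 0.31 (limma adjusted p = 0.00148). Fdft1, squalene synthase, which commits farnesyl units to sterols (chr14:63765769-63770009), had levels of 3.02, 2.94, 2.87 and 3.05 in dKO, against 4.50, 4.42, 4.07 and 4.39 in wild type. All 4 dKO arrays lay more than 1 log2 unit under the lowest wild-type array, and the gene fell by 1.37 ± 0.22 (limma adjusted p = 8.95e-05). Hsd17b7, a ketosteroid reductase of the late route (chr1:171882591-171882650), had levels of 2.36, 2.43, 2.20 and 1.99 in dKO, against 3.56, 3.57, 3.87 and 3.72 in wild type. It fell by 1.44 ± 0.18 (limma adjusted p = 8.59e-06), the sterol enzyme with the lowest adjusted p here.

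The other 5 sterol enzymes that fell did so by 1.01 to 1.12. They were Mvk (mevalonate kinase), Sqle (squalene epoxidase), Cyp51 (lanosterol demethylase), Nsdhl (a sterol dehydrogenase) and Dhcr7 (the reductase that ends the route), with limma adjusted p of 0.000369 to 0.00223 over all arrays and 0.0237 to 0.0467 with replicates 1 to 3. Hmgcs1 had levels of 4.83, 5.30, 5.38 and 5.0 in dKO, against 6.57, 6.58, 6.47 and 6.43 in wild type. Its groups did not overlap, but the difference of -1.39 ± 0.31 was called from all arrays only (limma adjusted p = 0.00215, and 0.0517 with replicates 1 to 3). Acat2, Pmvk, Idi1, Lss and Msmo1 were also called only from all arrays, with differences of -1.1 to -0.55. Tm7sf2, Ebp and Sc5d, which act after lanosterol, were not called.

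**Figure D2:**
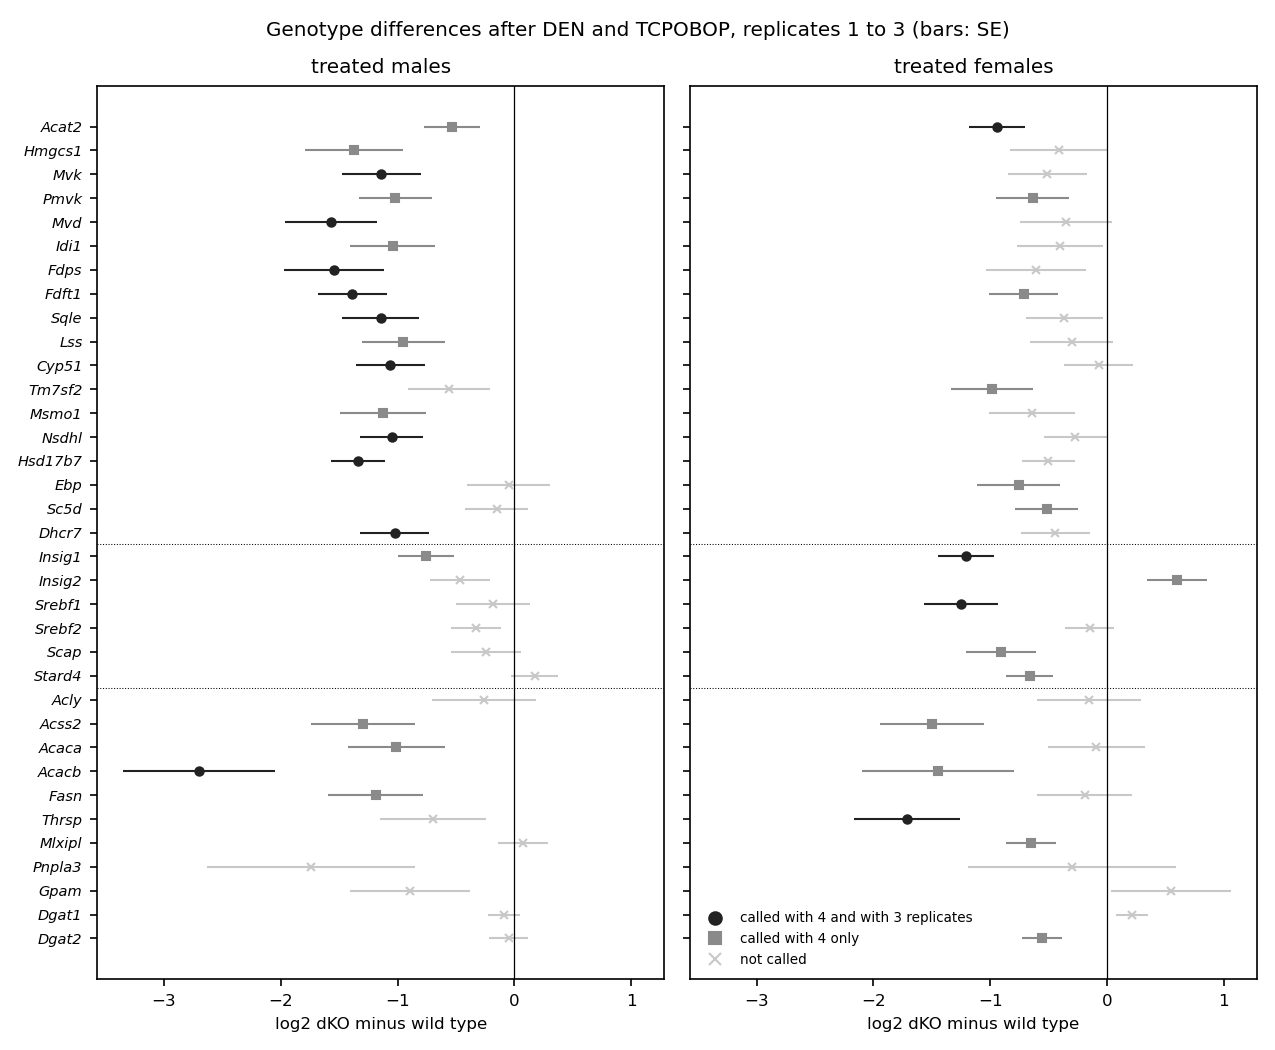
Points are log2 differences, dKO minus wild type, from replicates 1 to 3 for the 35 members, with SE bars, in treated males and treated females. In males 9 sterol enzymes and Acacb are drawn as called in both fits, and in females Acat2, Insig1, Srebf1 and Thrsp.

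Among the lipogenic genes Acacb, the acetyl-CoA carboxylase whose product restrains fatty acid oxidation (chr5:114700635-114700695), had the largest difference. Its levels were 0.57, 0.79, 0.73 and 0.51 in treated dKO males, against 2.94, 3.47, 3.79 and 3.41 in treated wild-type males. It fell by 2.75 ± 0.49, or 6.74-fold (limma adjusted p = 0.000294, and 0.0174 with replicates 1 to 3). Fasn, fatty acid synthase, had levels of 6.20, 6.58, 6.32 and 6.42 in dKO, against 7.47, 7.46, 7.74 and 7.57 in wild type. Its groups did not overlap either, and its difference of -1.18 ± 0.30 was called from all arrays (limma adjusted p = 0.00659) and not from replicates 1 to 3 (0.0806). The same held for Acss2 (acetyl-CoA synthetase, -1.26 ± 0.32) and Acaca (the other acetyl-CoA carboxylase, -0.98 ± 0.31). Dgat1 and Dgat2, which add the last acyl chain of triglyceride, were not called. Of 10 genes that supply NADPH, citrate or chain elongation to lipogenesis, 4 were called lower, and 3 of them fell in both fits, led by Me1 (malic enzyme, -2.01 ± 0.40) and Elovl6 (a fatty acid elongase, -1.99 ± 0.38).

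The transcription factors themselves were not called in treated males. Srebf1 had levels of 4.91, 5.58, 4.84 and 5.22 in dKO, against 5.30, 5.30, 5.27 and 5.16 in wild type, and the groups overlapped (-0.12 ± 0.23, limma adjusted p = 0.757). Srebf2 had levels of 3.20, 3.49, 3.43 and 3.46 in dKO, against 3.85, 3.70, 3.56 and 3.69 in wild type. Every dKO array was lower, but the difference of -0.30 ± 0.16 did not pass (limma adjusted p = 0.173). Mlxipl differed by 0.16 ± 0.16 (limma adjusted p = 0.525). Insig1, itself an SREBP target, had levels of 0.94, 1.33, 0.87 and 1.01 in dKO, against 1.93, 1.58, 1.90 and 1.83 in wild type, a difference of -0.78 ± 0.17 that was called from all arrays only (limma adjusted p = 0.00215, and 0.0565 with replicates 1 to 3). Insig2 differed by -0.46 ± 0.18 (limma adjusted p = 0.0734). Of 8 genes that cut or degrade SREBP pathway proteins 1 was called, the ubiquitin ligase Rnf145, which fell by 0.98 ± 0.14 (limma adjusted p = 3.75e-05).

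Markers of other cells moved with genotype in both sexes. In treated males 7 of 8 bile duct markers were called higher in dKO (7 from replicates 1 to 3), with a summed signal of 61.8 to 78.6 in dKO, against 9.92 to 20.3 in wild type. Of 8 stellate and matrix markers 5 were called higher (5 from replicates 1 to 3), with sums of 117 to 132 in dKO, against 30.7 to 73.1 in wild type. All 9 measured hepatocyte markers were not called, with sums of 2430 to 3115 in dKO and 2498 to 2834 in wild type. Of 8 cell cycle genes 6 were called lower in dKO (1 from replicates 1 to 3), and of 7 adipocyte markers 2 higher (1 from replicates 1 to 3). The part of these markers in the members' differences was not tested, and fewer cells of a type and less RNA per cell cannot be told apart in such samples.

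In treated females the control genes Srebf1 and Insig1, the lipogenic gene Thrsp and the sterol enzyme Acat2 fell in dKO. Of the 35 members, 15 were called lower and 1 higher in dKO, against 16.4% and 13.5% of all genes. On replicates 1 to 3 alone, 4 fell, where 7.98% of all genes were called in either direction. The share from replicates 1 to 3 is close to that of all genes. Without the second treated dKO female as well, whose hepatocyte markers were the lowest of all arrays, 1 member was called, Insig1 (-1.09, limma adjusted p = 0.0328). The treated dKO female arrays also had a spike-in slope of 0.923 to 0.985, against 0.955 to 1.03 in the other groups, and a median signal of 58.6 to 84.1, against 36.7 to 68.9. On these arrays 65.0% to 68.4% of spots were above background, against 50.4% to 65.3%, and the part of these measures was not tested.

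Srebf1 (probe chr11:60013214-60013273) had levels of 4.82, 4.72, 5.83 and 4.99 in treated dKO females, against 6.42, 6.61, 6.08 and 6.31 in treated wild-type females. The groups did not overlap, though the third dKO array came close to the lowest wild-type array, and Srebf1 fell by 1.27 ± 0.23, or 2.40-fold (limma adjusted p = 0.000469). Insig1 (chr5:28404246-28404305) had levels of 0.92, 1.1, 1.97 and 1.25 in dKO, against 2.55, 2.58, 2.49 and 2.43 in wild type. It fell by 1.20 ± 0.17, or 2.30-fold (limma adjusted p = 4.71e-05, and 0.00816 with replicates 1 to 3). Thrsp, or Spot 14, a nuclear protein that promotes lipogenesis (chr7:104565562-104565621), had levels of 4.21, 4.97, 6.25 and 5.17 in dKO, against 7.10, 6.69, 6.77 and 6.88 in wild type. It fell by 1.71 ± 0.33, or 3.27-fold (limma adjusted p = 0.000872). Acat2, the cytosolic thiolase that opens the sterol route (chr17:13136497-13136556), had levels of 4.56, 3.62, 4.51 and 4.23 in dKO, against 5.27, 5.08, 5.16 and 5.11 in wild type. Every dKO array was lower, and Acat2 fell by 0.93 ± 0.17 (limma adjusted p = 0.000560).

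The other called members of treated females were called from all arrays only. Acss2 had levels of 2.29, 3.02, 3.73 and 2.97 in dKO, against 4.48, 4.61, 4.44 and 4.41 in wild type, without overlap, and differed by -1.48 ± 0.32 (limma adjusted p = 0.00211, and 0.0532 with replicates 1 to 3). Mlxipl had levels of 4.58, 4.33, 5.0 and 4.45 in dKO, against 5.41, 5.26, 5.18 and 5.37 in wild type, and differed by -0.72 ± 0.16 (limma adjusted p = 0.00239, and 0.0743 with replicates 1 to 3). Tm7sf2, a sterol reductase, had levels of 5.33, 4.79, 6.07 and 5.40 in dKO, against 6.49, 6.5, 6.16 and 6.35 in wild type, and differed by -0.98 ± 0.25 (limma adjusted p = 0.00719, and 0.0967 with replicates 1 to 3). The member called higher was Insig2, with levels of 4.63, 5.13, 3.84 and 4.66 in dKO, against 3.99, 4.04, 3.78 and 3.95 in wild type. The third dKO array lay among the wild-type arrays, and the difference was 0.63 ± 0.18 (limma adjusted p = 0.0150, and 0.158 with replicates 1 to 3). Scap, Stard4 (a sterol transfer protein), Acacb, Dgat2, Fdft1, Pmvk, Ebp and Sc5d made up the rest, with differences of -1.38 to -0.53. Srebf2 differed by -0.20 ± 0.16 and was not called (limma adjusted p = 0.376).

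The mean of the lipogenic genes varied most in treated dKO females, with an SD of 0.64 over the 4 arrays, against 0.15 to 0.41 in the other groups. Fasn had levels of 6.59, 8.40, 7.44 and 7.93 in treated dKO females, against 8.05, 7.68, 7.28 and 7.77 in treated wild-type females. Acly, ATP citrate lyase, had levels of 1.52, 3.46, 2.39 and 2.61 in dKO, against 3.03, 2.47, 2.33 and 2.56 in wild type. Both genes were lowest in the first and highest in the second dKO female, and the groups overlapped. Gpam, which starts glycerolipid synthesis, had levels of -1.63, 1.20, -1.25 and 0.09 in dKO, against -1.02, -1.06, -1.25 and -1.1 in wild type, and was high in the second dKO female. The fourth dKO array also lay above wild type, but it resembled a mixture of the other arrays and is not a separate case. The lipogenic median of -0.23 in treated females was 0.22 without the first and -0.55 without the second dKO female, and 0.02 without the first wild-type female, so its direction rested on single arrays. The sterol median was -0.49. Within the 2 slides that held both groups the sterol median was -0.92 and 0.01, and the lipogenic median 0.57 and -0.56.

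Beside these differences, 7 of 8 bile duct markers were called higher in treated dKO females (5 from replicates 1 to 3), with sums of 73.4 to 240.5 in dKO, against 9.36 to 21.8 in wild type. All 8 stellate and matrix markers were called higher (6 from replicates 1 to 3), with sums of 112 to 183 in dKO, against 54.4 to 75.4 in wild type. All 8 cell cycle genes were called higher (2 from replicates 1 to 3). Of 9 hepatocyte markers 3 were called lower (0 from replicates 1 to 3), with sums of 1407 to 2702 in dKO, against 2586 to 3294 in wild type. Of 7 adipocyte markers 3 were called higher and 1 lower (3 and 0 from replicates 1 to 3), and of 8 macrophage markers 2 higher (0 from replicates 1 to 3). The part of these lists in the members' differences was not tested.

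Without treatment 17 of 18 sterol enzymes had a lower mean in dKO than in wild-type females, but 1 passed the test. Of the 35 members, 1 was called lower and 0 higher in dKO, against 4.62% and 5.18% of all genes. With replicates 1 to 3 there were 0 by limma, against 1.62% of all genes in either direction. At an unadjusted p under 0.05 there were 2 members (5.71%), against 13.1% of all genes. The 1 member was Cyp51, with levels of 1.93, 1.19, 2.28 and 1.77 in dKO, against 2.64, 2.56, 2.61 and 2.69 in wild type. Its groups did not overlap, and it differed by -0.84 ± 0.21 (limma adjusted p = 0.0166, and 0.235 with replicates 1 to 3). The sterol median was -0.45 and the lipogenic median 0.19. Within 2 slides the sterol median was -0.87 and -0.01. The sterol means of 3 of the 4 untreated dKO females lay below every wild-type array and that of the third lay above them all. Srebf1 had levels of 6.16, 6.99, 6.80 and 6.66 in untreated dKO females, against 5.93, 6.10, 6.72 and 6.21 in untreated wild-type females (0.41 ± 0.23, limma adjusted p = 0.286). Insig1, Insig2, Srebf2 and Mlxipl differed by -0.11, 0.35, -0.25 and 0.19 and were not called. Of 8 bile duct markers 5 were called higher in untreated dKO (2 from replicates 1 to 3), with sums of 15.9 to 24.7, against 7.97 to 9.14 in wild type, and of 8 stellate and matrix markers 4 (0 from replicates 1 to 3). Of 7 adipocyte markers 2 (1 from replicates 1 to 3) and of 8 macrophage markers 2 (0 from replicates 1 to 3) were called higher, and of 7 fasting genes 3 lower (1 from replicates 1 to 3). Their part was not tested.

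**Figure D3:**
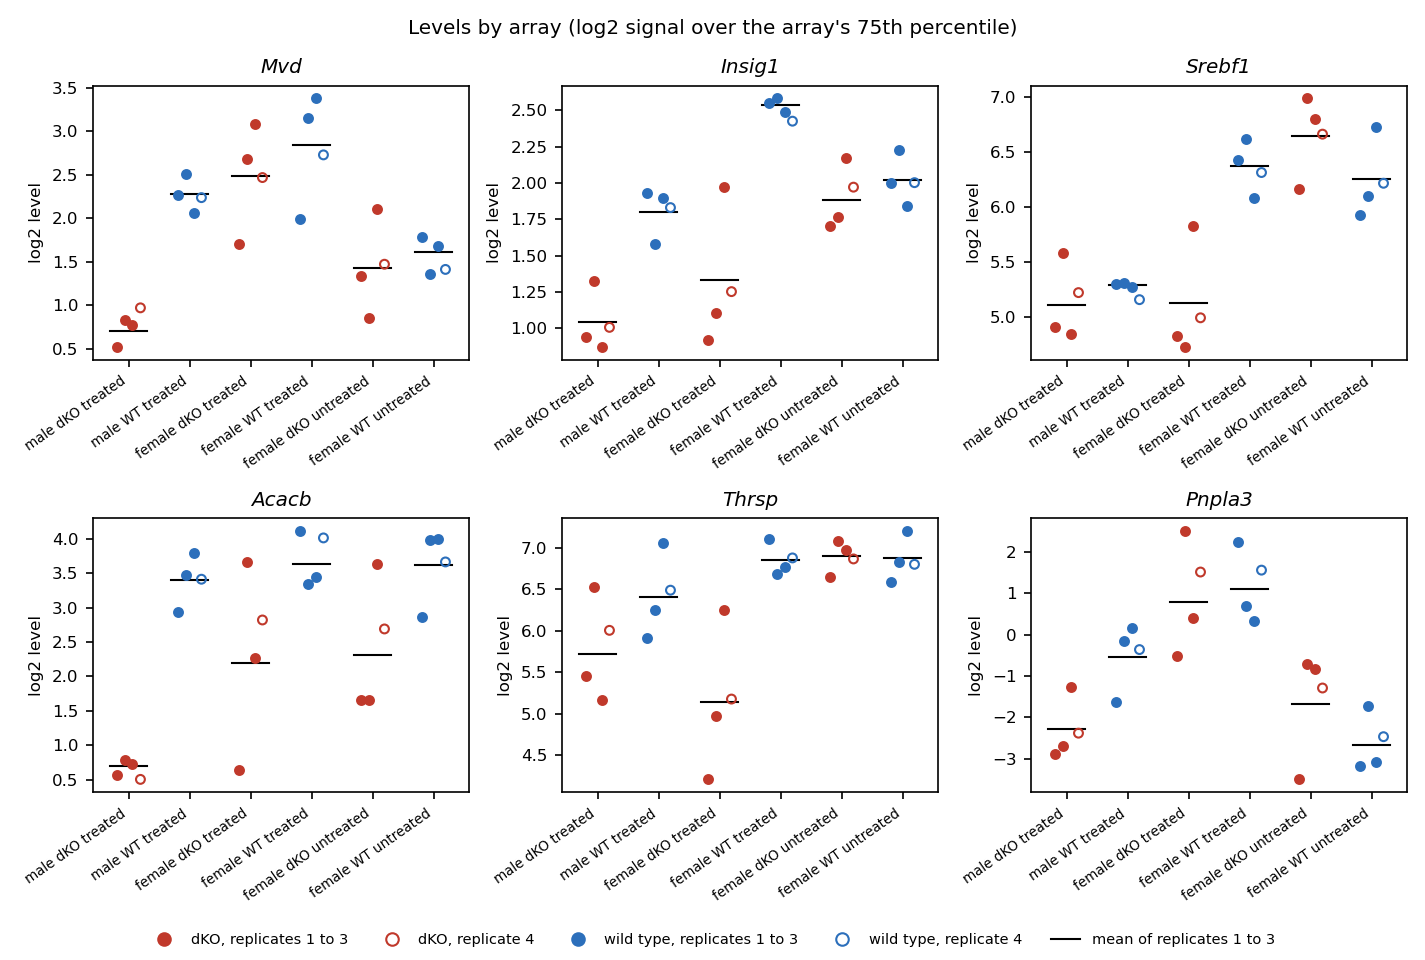
Each point is the log2 level of a gene on an array, over that array's 75th percentile, for Mvd, Insig1, Srebf1, Acacb, Thrsp and Pnpla3 in the 6 groups, with replicate 4 open and a bar at the mean of replicates 1 to 3. Mvd and Acacb of treated dKO males sit below every treated wild-type male, and Srebf1 of treated dKO females below every treated wild-type female.

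In wild-type females the treatment was accompanied by higher Pnpla3, the lipid droplet protein that responds to SREBP1c and ChREBP. Its levels were 2.23, 0.70, 0.33 and 1.56 in treated wild-type females, against -3.18, -1.72, -3.09 and -2.47 in untreated ones (probe chr15:84019823-84019882). The groups did not overlap, and Pnpla3 rose by 3.82 ± 0.66, or 14.1-fold (limma adjusted p = 0.000716, and 0.0459 with replicates 1 to 3). In all, 4 members were called higher and 0 lower, against 8.49% and 8.7% of all genes. With replicates 1 to 3 the count was 1, where 2.09% of all genes were called in either direction. The share called higher and the share from replicates 1 to 3 are close to those of all genes. From replicates 1 to 3, 5 members (14.3%) had an unadjusted limma p under 0.05, against 19.5% of all genes. Besides Pnpla3, the 3 members called higher were sterol enzymes, called from all arrays only. Mvd had levels of 1.99, 3.15, 3.38 and 2.73 in treated females, against 1.78, 1.36, 1.68 and 1.41 in untreated ones (1.25 ± 0.29, limma adjusted p = 0.00631, and 0.116 with replicates 1 to 3). Sqle had levels of 3.91, 4.71, 4.95 and 4.41 in treated females, against 3.67, 3.69, 3.58 and 3.64 in untreated ones (0.85 ± 0.24, limma adjusted p = 0.0190). Fdft1 had levels of 4.06, 4.81, 5.14 and 4.57 in treated females, against 3.84, 3.89, 3.78 and 3.83 in untreated ones (0.81 ± 0.22, limma adjusted p = 0.0144). In all 3 genes the first treated array was close to the untreated ones. The sterol median was 0.38 and the lipogenic median 0.27, and within 3 slides the sterol median was 0.06, 0.73 and 0.35. Srebf1, Srebf2, Insig1, Insig2 and Mlxipl differed by 0.11, 0.26, 0.49, -0.07 and 0.27, and none was called, Insig1 with a limma adjusted p of 0.0522. Of other lists, 5 of 7 lymphocyte markers (sums of 1.56 to 2.61 in treated, against 0.86 to 0.93 in untreated wild-type females), 3 of 8 macrophage markers (100.2 to 146.2, against 32.1 to 70.4), 2 of 7 adipocyte markers and 1 of 8 bile duct markers were called higher with treatment. Of 7 fasting genes 4 were called lower. From replicates 1 to 3, 1 fasting gene was called and no gene of the other 4 lists. Their part was not tested.

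In dKO females Srebf1, Thrsp and Stard4 fell with treatment, while 7 sterol enzymes were called higher from all arrays only. Of the 35 members, 8 were called higher and 10 lower in treated dKO, against 16.3% and 21.5% of all genes. Counting only replicates 1 to 3, 3 fell and 0 rose, where 13.3% of all genes were called in either direction, so the members' share was below that of all genes. The split turned to 12 higher and 7 lower with quantile normalization and 12 and 9 without the first treated dKO female, and was 0 and 4 in a fit of only the groups compared. Srebf1 had the levels given above, 4.72 to 5.83 in treated and 6.16 to 6.99 in untreated dKO females, and fell by 1.56 ± 0.23, or 2.95-fold (limma adjusted p = 7.78e-05). Thrsp, at 4.21 to 6.25 in treated and 6.65 to 7.08 in untreated dKO females, fell by 1.75 ± 0.33, or 3.35-fold (limma adjusted p = 0.000594). Stard4 had levels of 3.31, 2.86, 3.83 and 3.21 in treated dKO females, against 3.96, 3.84, 4.15 and 4.06 in untreated ones. The groups nearly met at their closest arrays, and Stard4 fell by 0.70 ± 0.15 (limma adjusted p = 0.00149, and 0.0465 with replicates 1 to 3).

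The 7 sterol enzymes called higher in treated dKO females were Hmgcs1, Mvk, Mvd, Fdps, Fdft1, Sqle and Cyp51, with differences of 0.62 to 1.18, and none was called from replicates 1 to 3 (limma adjusted p of 0.0663 to 0.193). All 7 overlapped between groups. Pnpla3 had levels of -0.53, 2.51, 0.39 and 1.51 in treated dKO females, against -3.50, -0.71, -0.83 and -1.29 in untreated ones, a difference of 2.55 ± 0.66 (limma adjusted p = 0.00525, and 0.0766 with replicates 1 to 3). Called lower from all arrays only were Acat2, Ebp, Acss2, Scap, Insig1, Mlxipl and Dgat2, with differences of -0.94 to -0.46. Acat2 was the one of these without overlap, at 3.62 to 4.56 in treated and 4.70 to 5.20 in untreated dKO females. Insig2 and Srebf2 differed by 0.21 and 0.31 and were not called. The sterol median was 0.43, and 0.23 without the third treated dKO female and 0.26 without the second untreated one. The lipogenic median was -0.06, and turned positive without the first treated female (0.19) or the third untreated female (0.15), with quantile normalization (0.09), with position as a covariate (0.03) and with the mean of a gene's probes (0.12). Within 3 slides the sterol median was -0.00, 0.27 and 0.82. Treated and untreated dKO females shared no slide position, so treatment and position cannot be told apart here. With position as a covariate, no member was called. Of 14 cholesterol transport and storage genes 3 were called higher and 5 lower (2 and 3 from replicates 1 to 3). Abcg8 and Abcg5, the subunits of the canalicular sterol exporter, had the largest differences. Abcg8 fell by 1.83 ± 0.27 (limma adjusted p = 9.09e-05, and 0.0131 with replicates 1 to 3), and Abcg5 fell by 1.38 ± 0.27 (0.000650 and 0.0305). Of the 8 bile duct markers 4 were called higher in treated dKO females (3 from replicates 1 to 3), and of the 8 stellate and matrix markers 6 (6 from replicates 1 to 3). All 8 cell cycle genes were called higher (6 from replicates 1 to 3) and 4 of 9 hepatocyte markers lower (1 from replicates 1 to 3), and the part of these markers was not tested.

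The sexes were compared after treatment only. In dKO mice 17 members were called lower and 1 higher in males, against 7.98% and 12.5% of all genes. With replicates 1 to 3, 1 fell, where 2.36% of all genes were called in either direction, a share close to that of the members. The 1 member was Mvd, at 0.52 to 0.97 in dKO males and 1.71, 2.68, 3.08 and 2.47 in dKO females. Mvd fell by 1.71 ± 0.29, or 3.27-fold (limma adjusted p = 0.000548, and 0.0329 with replicates 1 to 3). With the second dKO female left out too, Mvd differed by -1.68 and no member was called. Pnpla3 had levels of -2.90, -2.69, -1.26 and -2.38 in dKO males, against -0.53, 2.51, 0.39 and 1.51 in dKO females, and the difference of -3.28 ± 0.66 was called from all arrays only (limma adjusted p = 0.00219, and 0.0877 with replicates 1 to 3). Hmgcs1 (4.83 to 5.38 in dKO males, 5.86 to 7.14 in dKO females, difference -1.37 ± 0.31) was likewise called from all arrays only. The same held for Gpam (-2.10 to -1.81 in males, -1.63 to 1.20 in females, -1.59 ± 0.38) and Fasn (6.20 to 6.58 in males, 6.59 to 8.40 in females, -1.21 ± 0.30). It held too for Lss, lanosterol synthase (0.40 to 0.82 in males, 1.09 to 2.51 in females, -1.09 ± 0.26). Hmgcs1, Gpam, Fasn and Lss were picked among members without overlap between the sexes, so their lack of overlap is not a result. The SD of Gpam was 0.13 in dKO males and 1.30 in dKO females, whereas its SE rests on the shared spread. With replicate 4 of every group and the second dKO female left out, Gpam differed by -0.53 and Fasn by -0.65. Further sterol enzymes called lower from all arrays were Mvk, Fdft1, Sqle, Cyp51, Nsdhl, Hsd17b7 and Dhcr7, with differences of -1.0 to -0.83, and the remaining members Acacb, Acaca, Insig2 and Srebf2. Mlxipl was called higher in dKO males (0.54 ± 0.16, limma adjusted p = 0.0209, and 0.284 with replicates 1 to 3). Srebf1 and Insig1 differed by 0.05 and -0.28 and were not called. The sterol median was -0.85 and the lipogenic median -0.86, the second -0.53 without the second dKO female. Within 2 slides the sterol median was -0.35 and -1.54, and the lipogenic median 0.27 and -0.93. Of 8 cell cycle genes 7 were called lower in dKO males (0 from replicates 1 to 3), with sums of 2.48 to 4.58 in males and 3.63 to 22.8 in females. Of 9 hepatocyte markers 4 were called higher in dKO males (0 from replicates 1 to 3), and the part of both lists was not tested.

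In treated wild-type mice 2 members were called lower in males and 0 higher, against 2.87% and 3.3% of all genes, and with replicates 1 to 3 there were 0 by limma, where 0.394% of all genes were called in either direction. Without adjustment, 5 members (14.3%) had a p under 0.05, against 10.9% of all genes. Srebf1 had levels of 5.30, 5.30, 5.27 and 5.16 in males, against 6.42, 6.61, 6.08 and 6.31 in females. The sexes did not overlap, and the difference was -1.1 ± 0.23 (limma adjusted p = 0.00623, and 0.176 with replicates 1 to 3). Insig1 had levels of 1.93, 1.58, 1.90 and 1.83 in males, against 2.55, 2.58, 2.49 and 2.43 in females, also without overlap (-0.70 ± 0.17, limma adjusted p = 0.0170, and 0.228 with replicates 1 to 3). Srebf2, Insig2 and Mlxipl differed by -0.38, 0.34 and -0.33 and were not called. The sterol median was -0.30 and the lipogenic median -0.33, and within 2 slides the sterol median was -0.42 and -0.22. All 8 cell cycle genes were called higher and 3 of 7 lymphocyte markers lower in wild-type males (0 of either list from replicates 1 to 3), and their part was not tested.

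The interactions ask whether 1 difference depends on another factor. In treated mice the genotype difference was called as dependent on sex in 6 members from all arrays. Of these, 4 had a higher and 2 a lower value in males, against 7.25% and 5.24% of all genes. With replicates 1 to 3 no gene of 19040 was called by limma (0% of all genes), and 7 members (20%) had an unadjusted p under 0.05, against 14.8% of all genes. The split of the 6 turned to 0 higher and 4 lower with normexp background correction or slide as a block, to 2 and 4 with median centring, and to 3 and 11 without the first treated dKO female. The largest were Srebf1, whose genotype difference was -0.12 in males and -1.27 in females (1.15 ± 0.32, limma adjusted p = 0.0263), and Insig2, with -0.46 in males and 0.63 in females (-1.09 ± 0.26, limma adjusted p = 0.0115). In females the genotype difference was called as dependent on treatment in 5 members from all arrays. All 5 were lower with treatment, where 2.68% of all genes were lower and 2.47% higher. With replicates 1 to 3 there were 0 by limma, against 0.0368% of all genes, and 5 members (14.3%) had an unadjusted p under 0.05, as did 1990 of the 19040 genes. Srebf1 had the lowest adjusted p of these, with a genotype difference of -1.27 in treated and 0.41 in untreated females (-1.68 ± 0.32, limma adjusted p = 0.00759, and 0.245 with replicates 1 to 3). Thrsp, Acss2, Insig1 and Mlxipl were the others.

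**Figure D4:**
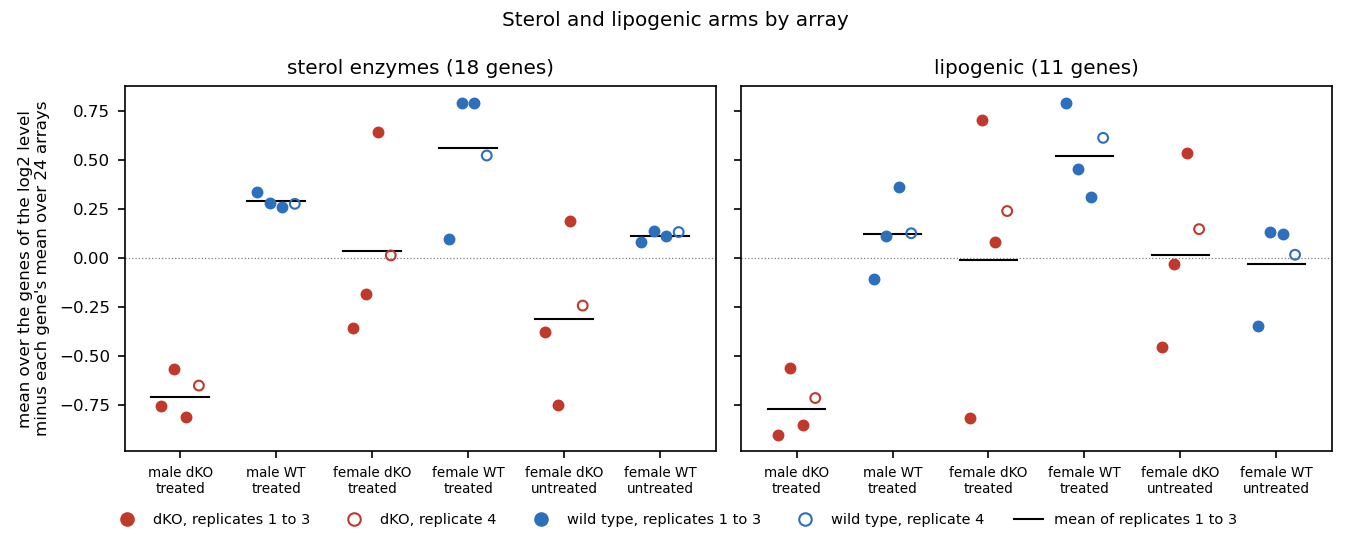
Each point is an array, and the vertical axis gives the mean over the genes of an arm of the log2 level minus the gene's mean over all 24 arrays, for 18 sterol enzymes and 11 lipogenic genes, with replicate 4 open and a bar at the mean of replicates 1 to 3. Treated dKO males sit between -0.81 and -0.56 in the sterol arm, below every treated wild-type male at 0.26 to 0.34.

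The 2 arms moved together between some groups and apart within others. The mean of the sterol arm, each gene centred on its mean over the 24 arrays, was -0.69 ± 0.11 (SD, n = 4) in treated dKO males and 0.29 ± 0.03 in treated wild-type males. The lipogenic arm was -0.76 ± 0.15 in the same dKO males and 0.13 ± 0.19 in the wild-type males, so sterol minus lipogenic was 0.06 ± 0.06 and 0.16 ± 0.22. In treated dKO females the sterol arm was -0.36, -0.18, 0.64 and 0.01 on the 4 arrays and the lipogenic arm -0.82, 0.71, 0.08 and 0.24. The first array was low in both, the second was high in the lipogenic arm alone, and the third was high in the sterol arm alone. In treated wild-type females the sterol arm was 0.55 ± 0.33, with the first array at 0.10, which was the highest of the 4 in the lipogenic arm at 0.79. The SDs include the replicate 4 arrays.

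After subtracting the group means, pairs of sterol enzymes had a median Pearson r of 0.72 over the 18 arrays of replicates 1 to 3 (153 pairs), pairs of lipogenic genes 0.45 (55 pairs), and pairs across the arms 0.20 (198 pairs). These are descriptions, and the genes share their arrays. Sqle followed the other sterol enzymes most closely (r = 0.96), and Acat2 least (r = 0.24). Fasn, Acly and Acacb followed the other lipogenic genes (r = 0.94, 0.94 and 0.93), whereas Acss2 followed the sterol enzymes (r = 0.75) more than the lipogenic genes (r = 0.51). The SDs of Fasn, Acly and Acacb were largest in treated dKO females (0.78, 0.80 and 1.27) and next in untreated dKO females (0.53, 0.64 and 0.95). Those 2 groups therefore weigh most in the r of these genes. Insig1 and Srebf2 followed the sterol enzymes (r = 0.73 and 0.76), and Insig2 ran against them (r = -0.42). The SD of Insig2 was 0.54 in treated dKO females, against 0.08 to 0.26 in the other groups, so that group weighs most in its r. Srebf1 had r = 0.41 with the sterol enzymes and 0.33 with the lipogenic genes. The non-member genes most like the sterol arm over all 24 arrays, of 13365 compared and including differences between groups, were Mmab (r = 0.86), Scpep1, Nat9, Rdh11 and Mblac2. For the lipogenic arm they were Elovl6 (r = 0.88), M77003, Acsl5, Gngt1 and Thsd1.

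**Figure D5:**
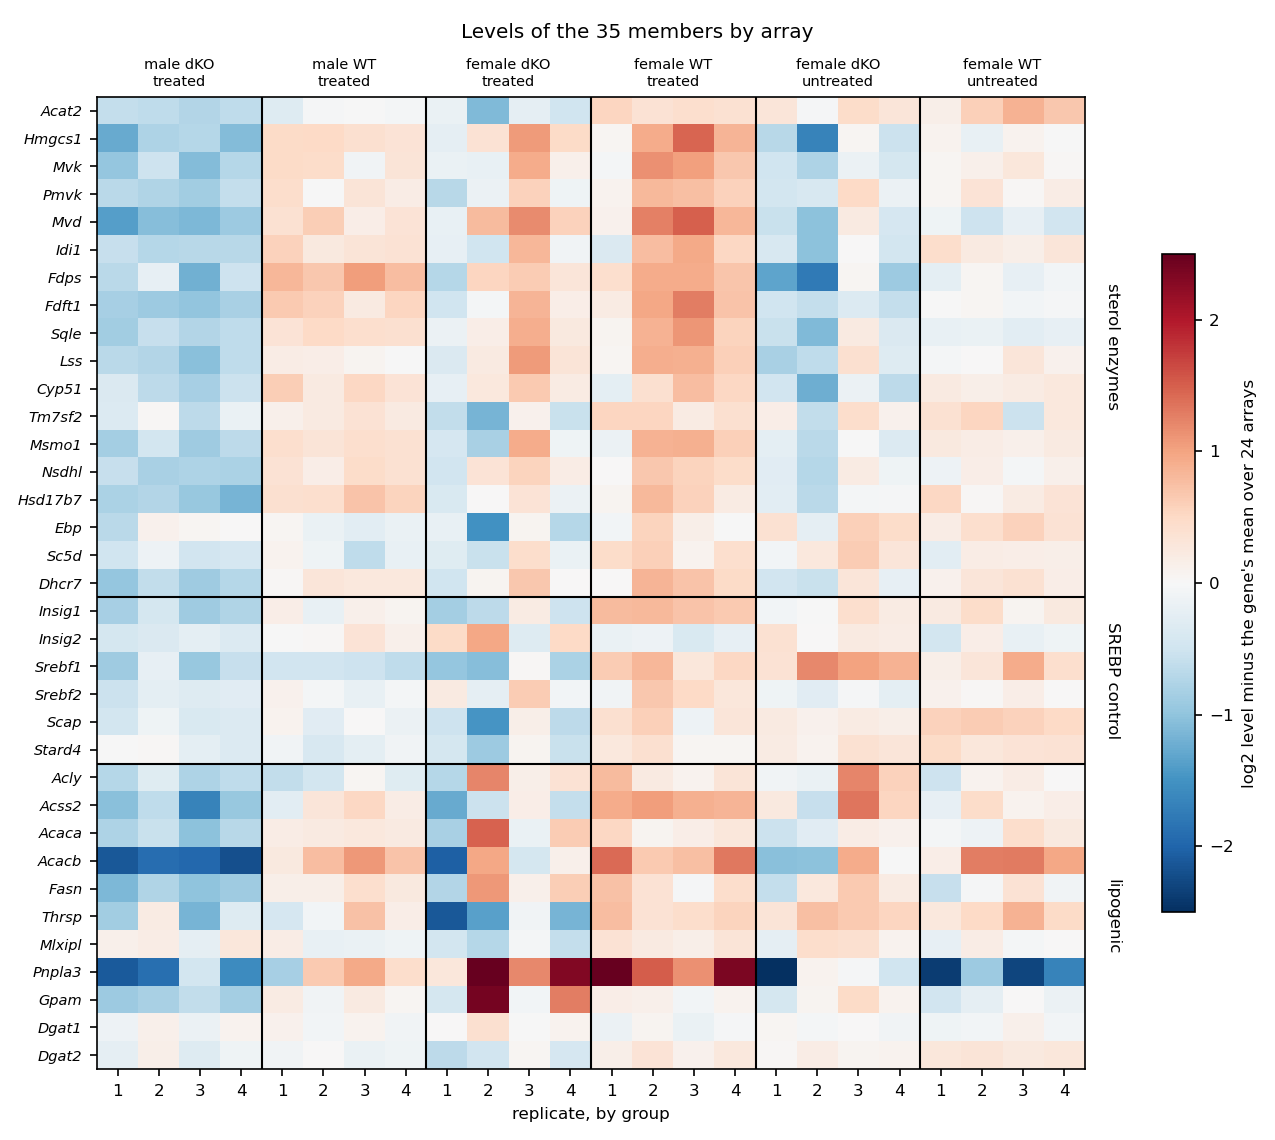
Rows are the 35 members by role and columns the 24 arrays by group, and colour gives the log2 level minus the gene's mean over all arrays. Most sterol enzymes are low in the 4 treated dKO males, and the lipogenic rows differ among the 4 treated dKO females.

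The signs of the called members were also those of the authors' deposited table of signed fold changes in all 7 comparisons between groups. That table covers the same samples, so the match is not independent.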

How the data were processed

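RNA of 24 mouse samples was amplified (WT-Ovation Pico), labelled with Cy3 (BioPrime) and hybridised to Agilent 4x44K arrays on 6 slides, per the labels' protocols, which mention liver samples and sorted cells. The deposited processed, mean and background intensity values were extracted with Agilent Feature Extraction 10.5.1.1, per the file headers. The submitters' processing notes give version 9.53. The authors' deposited signed fold score is used for signs only, and the test behind it is not stated there. Outlier spots were left out, repeated probes averaged, and log2 signal taken relative to each array's 75th percentile (433 to 959.9). Probes above background on at least 4 arrays were kept (28051 of 41174), and the brightest stood for its gene. No spot was saturated. Probes are placed as the files place them (mm9).

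The 7 comparisons and 2 interactions were fitted with limma 3.58.1 in R 4.3.3 with data.table (1.17.8) and 6 group means over all 24 arrays and Benjamini-Hochberg adjustment over 19040 genes, called under 0.05, and figures were drawn with matplotlib 3.10.9. The fit was tested on simulated data. Samples were grouped by title. Members and lists were chosen with earlier results of these data known. Values by array, or their range, are given for up to 6 called members each way, by size, without overlap between groups, and for the control genes. That choice requires groups without overlap, so the lack of overlap in members picked by it is not a result. Others shown for the spread among treated dKO females were chosen after their values were seen. No label says that replicates came from separate animals, so the p-values cover only the spread among these samples, which may be technical. Replicate 4 of every group resembled a mixture of the other 3, so each count of members is also given from replicates 1 to 3, and, in places, without the second treated dKO female too. Both settings were chosen after seeing the data. Alternatives covered background correction, scaling, probe summary, the filter, the samples fitted, slide, position, replicate number and each array left out.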

Additional observations from a re-analysis of the deposited data

Results flagged for a closer look

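In 5 of 210 combinations of gene and group, 1 array lay far from the other 3, which chance gives for about 1 in 20. In treated dKO males replicate 1 had Idi1 at 4.53, against 4.40 to 4.41 on the others, and Ebp at 6.41, against 7.09 to 7.20. In treated wild-type males replicate 1 had Acat2 at 4.40, against 4.67 to 4.72, and Dhcr7 at 4.69, against 4.93 to 4.97. In untreated wild-type females replicate 1 had Sc5d at 6.12, against 6.52 to 6.57. These include the fourth arrays, whose closeness to the others narrows the range.

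From all arrays the genotype difference was called as dependent on sex in treated mice, males minus females, for Srebf1 (1.15 ± 0.32, limma adjusted p = 0.0263), Mlxipl (0.88 ± 0.22, 0.0164), Stard4 (0.71 ± 0.21, 0.0337), Dgat2 (0.55 ± 0.17, 0.0364), Insig2 (-1.09 ± 0.26, 0.0115) and Hsd17b7 (-0.97 ± 0.26, 0.0186). These calls were lost under 19 alternatives for Dgat2, 15 for Stard4, 10 for Srebf1, 4 for Mlxipl and 3 each for Insig2 and Hsd17b7. In females the genotype difference was called as dependent on treatment, treated minus untreated, for Srebf1 (-1.68 ± 0.32, limma adjusted p = 0.00759), Insig1 (-1.08 ± 0.24, 0.0154), Mlxipl (-0.91 ± 0.22, 0.0249), Acss2 (-1.74 ± 0.46, 0.0329) and Thrsp (-1.75 ± 0.47, 0.0363). Thrsp and Acss2 lost this call under 17 alternatives each, Mlxipl under 11, and Srebf1 and Insig1 under 3 each. None of the 11 was called from replicates 1 to 3.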

How the results depend on the processing

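None of the 90 called differences of members changed sign in any of the 1798 refits under 35 alternatives. Calls were less stable than signs, and the call of a named member was lost under as many as 19 alternatives. For sex in dKO, the calls of Srebf2 and Mlxipl were lost under 11 each. Counts of members called are given here in the order untreated female genotype, treated female genotype, treated male genotype, treatment in wild-type females, treatment in dKO females, sex in wild type, sex in dKO, sex by genotype, and genotype by treatment, where all arrays gave 1, 16, 20, 4, 18, 2, 18, 6 and 5. Replicates 1 to 3 gave 0, 4, 10, 1, 3, 0, 1, 0 and 0. With the second treated dKO female out too they gave 0, 1, 17, 1, 1, 0, 0, 0 and 0. Position as a covariate gave 0 for treated female genotype, treated male genotype, untreated female genotype, treatment in dKO females and genotype by treatment, 1 for sex in wild type, 5 for sex in dKO and 1 for sex by genotype. The cause was not tested. Position and group cannot be told apart in the treated genotype comparisons, nor between treated and untreated dKO females. A fit of only the groups compared gave 6 for untreated female genotype and 24 for treated male genotype. It gave 7 for treatment in wild-type females and 4 for sex in wild type, each higher than from all arrays. Where treated dKO females were among the groups, the counts were lower. They were 7 for treated female genotype, 4 for treatment in dKO females and 6 for sex in dKO. Sex by genotype gave 4 and genotype by treatment 2. These fits have fewer arrays and only the spread of the groups compared, and the part of each was not tested. Quantile normalization gave 10 for treated female genotype, 7 for treatment in wild-type females and 4 for sex in wild type. Normexp gave 1 for sex in wild type and 2 for genotype by treatment, no filter gave 3 for genotype by treatment, and the mean of a gene's probes 4 for untreated female genotype. Leaving out 1 array at a time gave 0 to 3, 11 to 20, 18 to 21, 2 to 6, 15 to 21, 1 to 2, 15 to 21, 3 to 14 and 2 to 10. The replicate numbers do not pair the samples (28 correlations of deviations, -0.344 to 0.342), and the replicate block gave 1, 16, 21, 5, 18, 2, 19, 6 and 5. Splits of all called genes moved with scaling. Normexp gave 1742 higher and 5395 lower in treated females (2569 and 3129 with the 75th percentile). Median centring gave 1768 and 2970 in treated males (2738 and 2070), 1258 and 2068 for treatment in wild-type females (1617 and 1656), 1492 and 1513 for sex in dKO (2372 and 1520), and 690 and 999 for sex by genotype (1381 and 998). The median of all genes moved by over 0.1 with normexp in treated females (-0.23, against -0.07), treated males (-0.06, against 0.04), treatment in wild-type females (0.09, against -0.06), sex by genotype (0.22, against 0.11) and genotype by treatment (-0.15, against -0.02), and with median centring in treated males (-0.09, against 0.04). With no filter on dim probes, which adds genes, it was -0.27 (-0.07) for treatment in dKO females, -0.23 (-0.07) in treated females, -0.06 (0.04) in treated males, 0.23 (0.07) for sex in dKO, 0.26 (0.11) for sex by genotype and -0.18 (-0.02) for genotype by treatment. The sterol and lipogenic medians of the genotype, sex and wild-type treatment comparisons kept their sign with normexp, median centring, quantile normalization and no filter.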
